A study of Homo sapiens with 8 samples.

Results

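The SLAM family is a group of immunoglobulin-type surface receptors of lymphocytes and other blood cells, followed here together with SH2D1A, the gene of their adaptor SAP. Its members were taken by gene symbol from the count table: CD84, LY9, SLAMF6, SLAMF1, CD48, CD244, SLAMF7 and SH2D1A, 8 of the 63677 genes listed. All 8 passed the filter on low counts that left 15646 genes to test. CD84 and LY9 were chosen by their measured response, lower with dTAG-13 and higher with GSI, so their values are a description and carry no test. SLAMF7, which passed the filter only through the libraries where it was highest, is described without a test as well. The other 5 genes of the list are tested.

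The RNA was from Jurkat, a human line established from a T-cell acute lymphoblastic leukaemia, whose TAL1 protein carried the FKBP12 tag in every group, the controls included. TAL1 is a basic helix-loop-helix transcription factor. Through the tag, dTAG-13 brings the protein to a ubiquitin ligase for degradation, while GSI stands for gamma-secretase inhibitor, which stops the enzyme that cuts and so activates NOTCH receptors. Cells received dTAG-13 together with GSI (the combination), GSI, dTAG-13, or the solvent DMSO, each for 24 hours and with 2 libraries. The labels give no doses, do not name the GSI compound, and do not say whether the line is a single clone or whether replicates were separate cultures. The p-values therefore measure only the spread between these libraries, which may be technical.

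SLAM receptors bind each other between cells. Most are their own ligand, while CD48 is the ligand of CD244. The tails of most of them hold tyrosine motifs that the SH2 domain of SAP recognises. SAP brings the kinase FYN to the receptor, and its loss in people causes X-linked lymphoproliferative disease. In thymus and T cells these receptors are known for their part in the development of natural killer T cells and in help to B cells. Except for SH2D1A, which is on the X chromosome, the 8 genes lie in 1 cluster on the long arm of chromosome 1.

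SH2D1A rose about 1.4-fold with GSI, whether or not dTAG-13 was present. Averaged over both backgrounds its call held whichever 1 library was left out, while the call in each single background did not hold without some single libraries. Over both backgrounds SLAMF6 also rose with GSI and CD244 fell. The CD244 call did not hold without most single libraries. No tested member passed for dTAG-13. CD84, LY9 and SLAMF6 were lowest in the dTAG-13 libraries and highest in the GSI libraries, and CD84 and LY9 with the combination lay at their DMSO levels.

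Promoter sequences of the 3 genes that passed a test are shown here because TAL1 binds E-boxes with its partners, GATA factors often bind beside it, and NOTCH acts through the DNA-binding protein CSL. They are the 250 bases before the annotated start in RefSeq (GRCh38.p14), printed on the strand of the gene; 5 of the 8 members had a promoter entry. Capitals mark letters that match a motif on either strand, and the marked matches do not overlap. The E-box was searched as CANNTG, which reads alike on both strands. For the core of the CSL site the letters were TGGGAA. The GATA motif searched for was AGATAA.
SH2D1A, chrX:124346313-124346562, plus strand: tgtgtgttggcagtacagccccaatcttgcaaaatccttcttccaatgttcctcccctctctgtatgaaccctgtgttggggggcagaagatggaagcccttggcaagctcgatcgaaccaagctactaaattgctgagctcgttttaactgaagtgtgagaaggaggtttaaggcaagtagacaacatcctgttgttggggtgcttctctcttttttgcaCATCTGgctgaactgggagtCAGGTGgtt
SLAMF6, chr1:160523256-160523505, minus strand: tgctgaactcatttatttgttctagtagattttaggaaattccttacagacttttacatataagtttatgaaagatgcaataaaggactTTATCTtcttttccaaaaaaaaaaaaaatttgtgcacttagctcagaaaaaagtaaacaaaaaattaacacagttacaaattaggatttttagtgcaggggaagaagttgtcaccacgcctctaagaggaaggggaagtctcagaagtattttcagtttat
CD244, chr1:160862888-160863137, minus strand: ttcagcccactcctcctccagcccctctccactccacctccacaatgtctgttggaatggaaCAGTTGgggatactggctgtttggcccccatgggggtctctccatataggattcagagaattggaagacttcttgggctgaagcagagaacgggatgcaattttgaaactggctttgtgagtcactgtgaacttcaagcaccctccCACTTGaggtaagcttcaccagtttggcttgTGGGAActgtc

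The window before SH2D1A held 2 E-boxes, that before SLAMF6 held 1 GATA match, and that before CD244 held 2 E-boxes and 1 CSL core. The windows of SLAMF1 and CD48 were searched as well: SLAMF1 had none of the 3 motifs, and CD48 had 1 E-box and 1 GATA match. Of 35116 RefSeq promoters, 61.8% held an E-box, 20.8% a CSL core and 9.17% a GATA match in the same window. These are matches of letters, not sites shown to be bound.

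The libraries held 17544319 to 22180009 counts each, and within a group the 2 replicates differed beyond counting noise (chi-square over its degrees of freedom between 4.62 and 13.9). The 9 T cell markers summed to 2582 to 3049 CPM (counts scaled to library size) in every library, and all 9 stood above 1 CPM. DTX1, a target gene of NOTCH, stood at 18.4 and 18.9 CPM in the GSI libraries against 138 and 154 CPM in the DMSO libraries. With dTAG-13 it stood at 99.5 and 104.5 CPM (log2 difference from DMSO -0.52, edgeR adjusted p = 0.146, DESeq2 adjusted p = 0.00869). dTAG-13 acts on protein, so the TAL1 transcript, at 145 and 147 CPM with dTAG-13 against 154 and 166 CPM with DMSO, does not check that treatment. With GSI the TAL1 transcript stood at 208 and 198 CPM (0.34 against DMSO, edgeR adjusted p = 0.0486), a call lost whichever 1 of the 4 libraries was left out (adjusted p 0.0678 to 0.433). HES1, another NOTCH target, stood at 2.39 and 3.28 CPM in the GSI libraries against 12.7 and 12.7 CPM in the DMSO libraries.

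The 8 transcripts differed widely in level. Per kilobase of exon, SH2D1A was the highest of them in every library, with a median of 66.4 CPM per kilobase over the 8 libraries (range 54.5 to 83.3). CD48 followed at 18.9 (17.9 to 23.9). SLAMF6 at 9.53 (6.89 to 12.9) and CD84 at 9.47 (6.62 to 14.4) could not be ordered. SLAMF1 came next at 2.95 (2.45 to 3.54), and its range touched that of CD244 at 2.12 (1.65 to 2.51). LY9 stood at 0.94 (0.56 to 1.3) and SLAMF7 at 0.063 (0.03 to 0.11). Among 15173 tested genes with a known length, ranked by mean CPM per kilobase, the members lay between the 96.1st percentile (SH2D1A) and the 1.03rd (SLAMF7). With coding length in place of exon length CD84 moved by its median to second place, ahead of CD48 and SLAMF6. Its range (59.2 to 128.7 CPM per kilobase) overlapped that of CD48 (61.4 to 81.8), so these 2 could not be ordered. The other ranks stayed as they were.

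**Figure D1:**
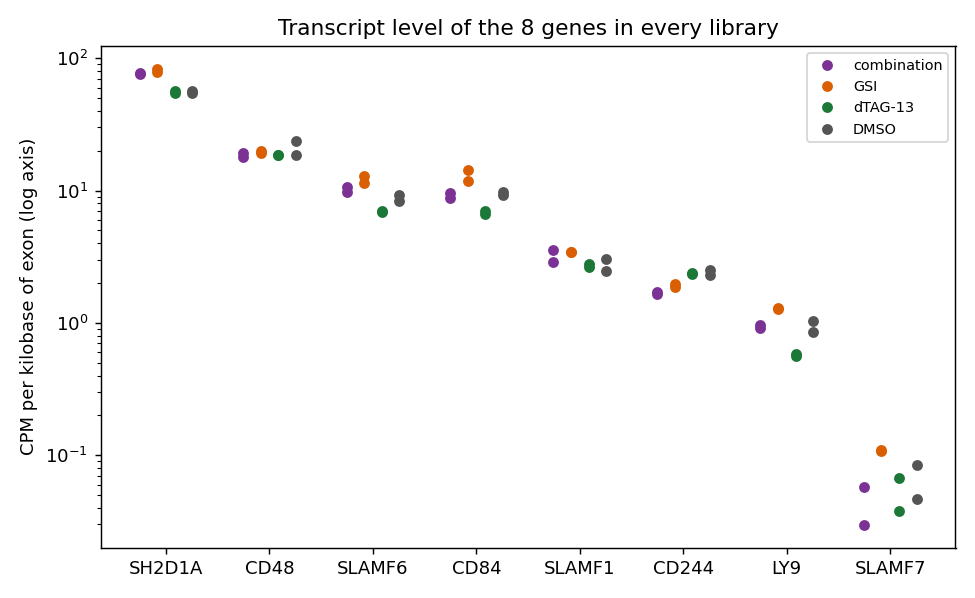
CPM per kilobase of exon (log axis) for the 8 genes, ordered by their median; each point is 1 library, and combination, GSI, dTAG-13 and DMSO run from left to right within a gene. The adaptor gene SH2D1A stands above all receptors, and SLAMF7 lies below the rest.

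CD84, a receptor that binds itself between cells, had 89.4 and 81.5 CPM in the combination libraries, 133 and 110 CPM with GSI, 65.0 and 61.3 CPM with dTAG-13, and 85.8 and 90.2 CPM with DMSO. The libraries with GSI alone were the highest of the 8 and those with dTAG-13 alone the lowest, while the combination and DMSO libraries overlapped. On the log2 scale CD84 differed from DMSO by 0.47 with GSI (SE 0.1, 95% interval 0.25 to 0.68) and by -0.48 with dTAG-13 (SE 0.1, -0.70 to -0.26), the values that chose it. The authors' deposited tables, made from the same series, give 0.45 with GSI and -0.48 with dTAG-13, which is no separate support. Because the GSI replicates lay apart, the GSI difference was 0.32 without GSI replicate 1 and 0.60 without GSI replicate 2.

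In the other background the differences of CD84 were of like size: 0.44 for the combination against dTAG-13 (SE 0.1) and -0.51 for the combination against GSI (SE 0.1). These comparisons share libraries with those that chose the gene, so no test is given. The single effects added up to the combination within -0.03 (combination minus their sum, 95% interval -0.34 to 0.28). Against DMSO the combination gave -0.04 (SE 0.1, 95% interval -0.26 to 0.18), with no test, since the DMSO libraries also served to pick the gene.

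LY9, another self-binding receptor with a low transcript level, had 8.84 and 8.34 CPM with the combination, 11.9 and 11.7 CPM with GSI, 5.30 and 5.13 CPM with dTAG-13, and 9.41 and 7.76 CPM with DMSO. As for CD84, the GSI libraries were the highest, the dTAG-13 libraries the lowest, and the combination libraries lay between the DMSO values. The values that chose it were a log2 difference of 0.46 with GSI (SE 0.14) and -0.71 with dTAG-13 (SE 0.15). The DMSO replicates set their size: without DMSO replicate 1 they were 0.60 and -0.57, and without DMSO replicate 2 they were 0.32 and -0.85.

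LY9 stood 0.72 higher with the combination than with dTAG-13 (SE 0.15) and 0.45 lower with the combination than with GSI (log2 difference -0.45, SE 0.13), again with no test. The combination minus the summed single effects was 0.26 (95% interval -0.18 to 0.69). Against DMSO the combination gave 0.01 (SE 0.14, 95% interval -0.30 to 0.31), with no test for the same reason as for CD84.

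SLAMF6, a self-binding receptor of T, B and natural killer cells, had 29.1 and 26.8 CPM with the combination, 35.4 and 31.3 CPM with GSI, 19.3 and 18.9 CPM with dTAG-13, and 25.5 and 22.7 CPM with DMSO. The 4 groups did not overlap and kept the order GSI, combination, DMSO, dTAG-13 from high to low. Its order was that of CD84 and LY9 except that its combination libraries lay above DMSO. Over both backgrounds on average, it rose with GSI 1.42-fold (log2 difference 0.51, SE 0.077, edgeR adjusted p = 0.00188), a call kept whichever 1 of the 8 libraries was left out.

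Within the single backgrounds, SLAMF6 rose with the combination against dTAG-13 (0.55, SE 0.11, edgeR adjusted p = 0.0322), a call lost without combination replicate 1 (adjusted p = 0.178), dTAG-13 replicate 1 (0.204) or dTAG-13 replicate 2 (0.335), and in a fit of the 4 libraries alone (0.0648). With GSI alone the difference was 0.47 (SE 0.11, edgeR adjusted p = 0.0507), just outside the threshold of 0.05. For dTAG-13 the values were -0.33 against DMSO (SE 0.11, edgeR adjusted p = 0.907) and -0.29 averaged over both backgrounds (SE 0.077, edgeR adjusted p = 0.211), neither past the threshold. The 95% interval of the averaged difference was -0.46 to -0.13.

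SLAMF1, the self-binding receptor that gave the family its name, had 12.2 and 15.1 CPM with the combination, 14.6 and 14.8 CPM with GSI, 11.8 and 11.3 CPM with dTAG-13, and 12.9 and 10.4 CPM with DMSO. The GSI libraries lay above the DMSO libraries, but the combination replicates spanned most of the range. GSI gave 0.33 against DMSO (SE 0.14, edgeR adjusted p = 0.314) and 0.29 averaged over both backgrounds (SE 0.1, 95% interval 0.07 to 0.50, edgeR adjusted p = 0.11). dTAG-13 gave -0.05 averaged over both backgrounds (95% interval -0.27 to 0.16).

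CD48, a lipid-anchored receptor and the ligand of CD244, had 62.4 and 58.6 CPM with the combination, 63.2 and 65.4 CPM with GSI, 60.7 and 60.7 CPM with dTAG-13, and 78.1 and 61.2 CPM with DMSO. Its highest library was DMSO replicate 1, which lay above all other libraries, while DMSO replicate 2 lay among them. No comparison passed: averaged over both backgrounds GSI gave -0.06 (95% interval -0.22 to 0.11, edgeR adjusted p = 0.712) and dTAG-13 gave -0.14 (-0.31 to 0.02, edgeR adjusted p = 0.921). In GENCODE 29, 29.8% of its exon bases are overlapped by an antisense gene, and the strand setting of the counting is not given in the sources used here.

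CD244, the receptor for CD48 on natural killer cells and some T cells, had 4.70 and 4.89 CPM with the combination, 5.35 and 5.59 CPM with GSI, 6.68 and 6.76 CPM with dTAG-13, and 6.53 and 7.17 CPM with DMSO. All 4 libraries with GSI lay below all 4 without it, the opposite order to SLAMF6 and SH2D1A. With GSI over both backgrounds CD244 fell (log2 difference -0.41, SE 0.1, 95% interval -0.63 to -0.18, edgeR adjusted p = 0.0351). Leaving out 1 library ended this call for 6 of the 8 libraries, all but GSI replicate 2 and combination replicate 2, with adjusted p up to 0.163, and the Wald test of DESeq2 gave an adjusted p of 0.0904. The single comparisons gave -0.33 for GSI against DMSO (edgeR adjusted p = 0.341) and -0.49 for the combination against dTAG-13 (edgeR adjusted p = 0.17).

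SLAMF7, a receptor of natural killer and plasma cells, had 6 and 3 counts with the combination, 11 and 11 counts with GSI, 4 and 7 counts with dTAG-13, and 7 and 5 counts with DMSO. These 54 counts in all passed the filter only through the GSI libraries. No test is given, since the GSI counts let the gene into the fit; the 95% interval for GSI against DMSO, -0.48 to 1.999 on the log2 scale, shows how little this depth can tell. SH2D1B, whose product EAT-2 is the adaptor SLAMF7 uses in natural killer cells, had 0 counts in every library.

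SH2D1A had 236 and 233 CPM with the combination, 241 and 255 CPM with GSI, 167 and 173 CPM with dTAG-13, and 174 and 167 CPM with DMSO. All 4 libraries with GSI lay above all 4 without it, and within each of these sets the 2 groups were close. Against DMSO, SH2D1A rose 1.45-fold with GSI (log2 difference 0.54, SE 0.077, edgeR adjusted p = 0.00403) and 1.37-fold with the combination (0.46, SE 0.077, edgeR adjusted p = 0.0108). Against dTAG-13 it rose 1.38-fold with the combination (0.46, SE 0.076, edgeR adjusted p = 0.0112).

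Averaged over both backgrounds the rise of SH2D1A with GSI was 1.42-fold (0.50, SE 0.054, 95% interval 0.39 to 0.62, edgeR adjusted p = 0.000188), and it passed whichever 1 library was left out (adjusted p up to 0.0059). The single comparisons were less firm. GSI against DMSO was lost without DMSO replicate 1 (adjusted p = 0.0693) or DMSO replicate 2 (0.146). The combination against DMSO was lost without combination replicate 1 (0.0564), DMSO replicate 1 (0.141) or DMSO replicate 2 (0.28), and the combination against dTAG-13 without dTAG-13 replicate 1 (0.173) or dTAG-13 replicate 2 (0.164). With dTAG-13 alone SH2D1A differed from DMSO by -0.01 (95% interval -0.17 to 0.16, edgeR adjusted p = 1), and 2.91% of its exon bases are shared with the gene TEX13D on the same strand.

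**Figure D2:**
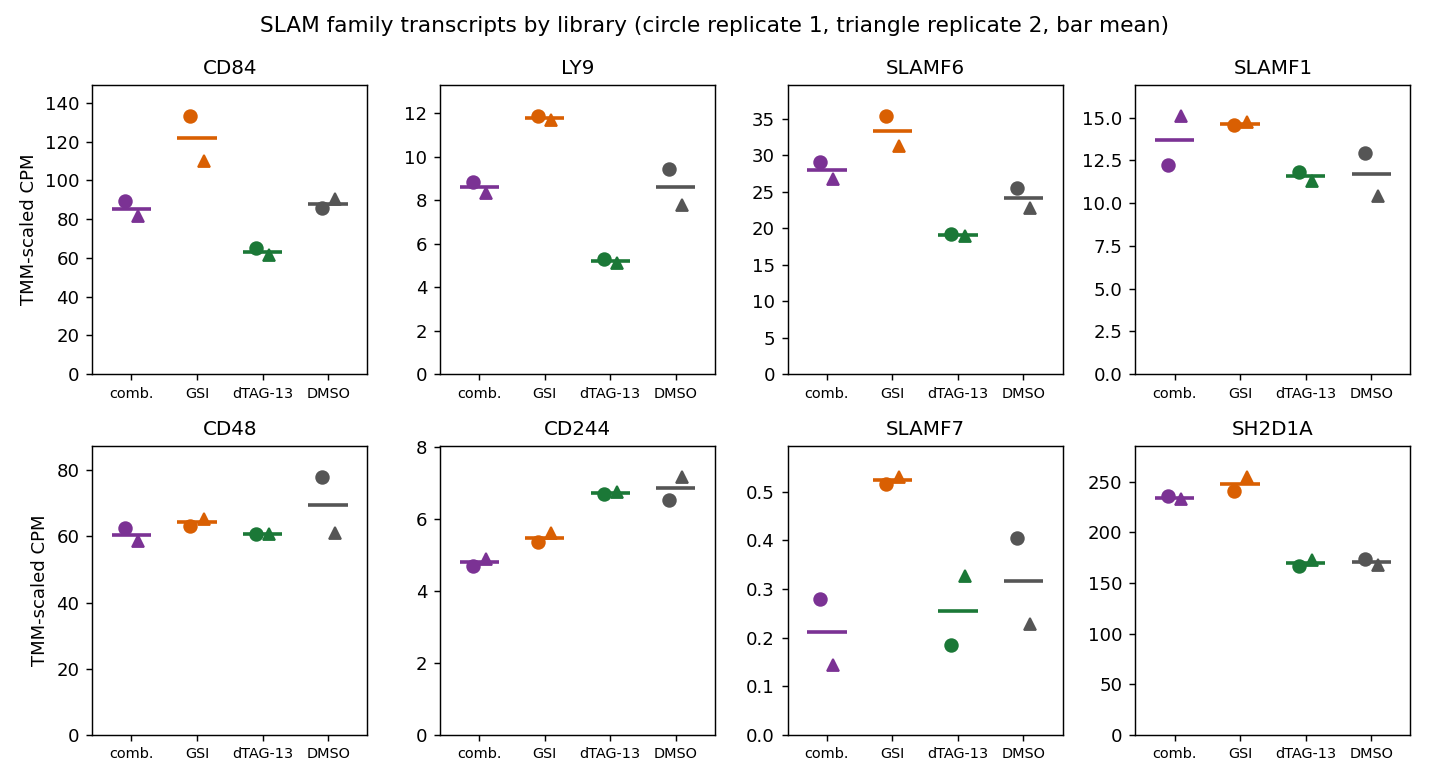
CPM of each gene in the 8 libraries (circle replicate 1, triangle replicate 2, bar the mean of both), with combination, GSI, dTAG-13 and DMSO from left to right and axes from 0. CD84 and LY9, which were picked for it, and SLAMF6 peak with GSI and are lowest with dTAG-13. SH2D1A is high and CD244 low in both groups that had GSI, and CD48 differs most between its own DMSO replicates.

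Counted over the tested members and set beside all genes, GSI against DMSO called 1 of 5 members (SH2D1A, higher), where edgeR called 1.74% of the 15646 genes. The combination against DMSO called 1 of 5 (SH2D1A, higher) beside 1.31% of all genes. The combination against dTAG-13 called 2 of 5 (SLAMF6 and SH2D1A, both higher) beside 1.21%. Averaged over both backgrounds, GSI called 3 of 5 beside 6.94% of all genes. At 1 to 3 members these counts are small and turn on the genes named.

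For dTAG-13 the same edgeR test called 0 of 5 members against DMSO, beside 0.0192% of all genes. SLAMF6 alone had an unadjusted p under 0.05 (0.0105), beside 3.84% of all genes. The Wald test of DESeq2 called 0 members, beside 23 of 15646 genes. The combination against GSI called 0 of 5 beside 0.0575% of all genes. There 1 member, SLAMF6, had an unadjusted p under 0.05 (0.0337), beside 4.14% of all genes. DESeq2 called 0 members there, beside 23 of 15646 genes. Averaged over both backgrounds, dTAG-13 called 0 of 5 beside 0.499% of all genes. Again 1 member, SLAMF6, had an unadjusted p under 0.05 (0.00231), beside 6.08% of all genes. By DESeq2 the averaged comparison called 0 members, beside 106 of 15646 genes.

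**Figure D3:**
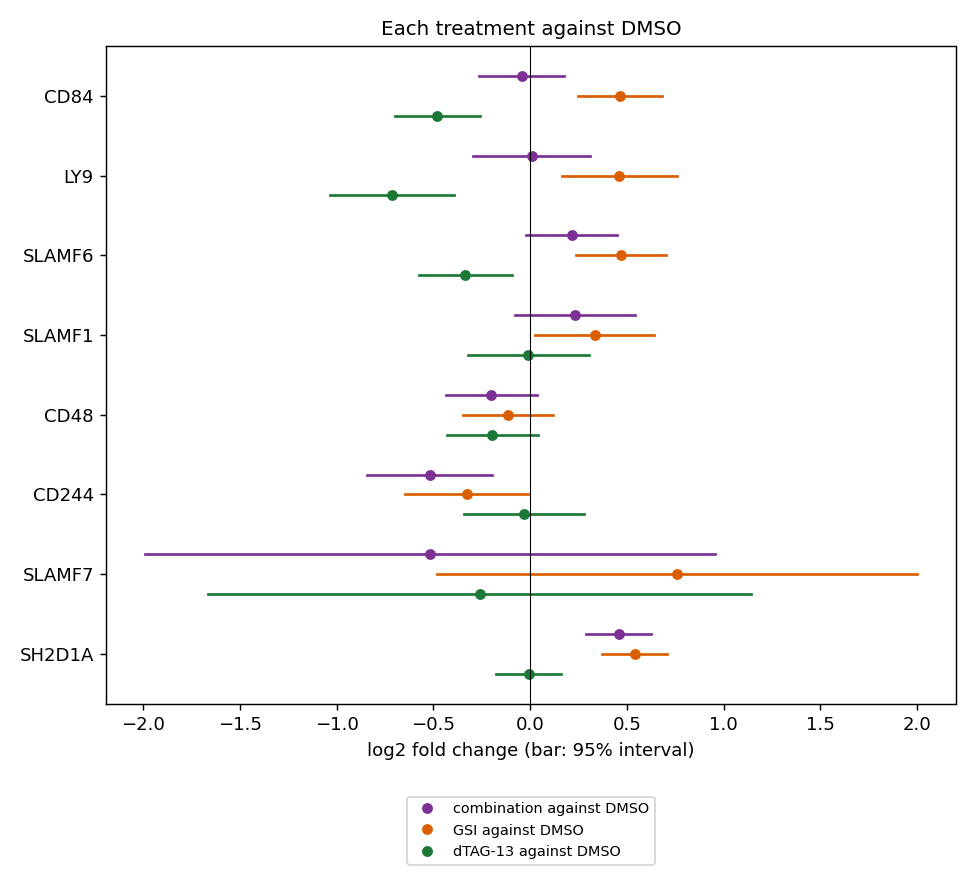
Log2 fold change against DMSO for the combination, GSI and dTAG-13 (top to bottom within each gene), with 95% intervals; CD84 and LY9 were picked for their GSI and dTAG-13 values. The combination lies near 0 for CD84 (-0.04) and LY9 (0.01), and near the GSI value for SH2D1A (0.46 beside 0.54).

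Whether the effect of 1 drug depended on the other was tested as the combination minus the summed single effects on the log2 scale. This difference called 0 of 5 members by edgeR and 0 by DESeq2, and 0 members had an unadjusted p under 0.05; over all genes it called 0%, with 260 of 15646 at an unadjusted p under 0.05. Its 95% intervals were -0.25 to 0.41 for SLAMF6, -0.53 to 0.34 for SLAMF1, -0.22 to 0.44 for CD48, -0.61 to 0.29 for CD244 and -0.31 to 0.16 for SH2D1A. Values inside these intervals cannot be told from none.

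**Figure D4:**
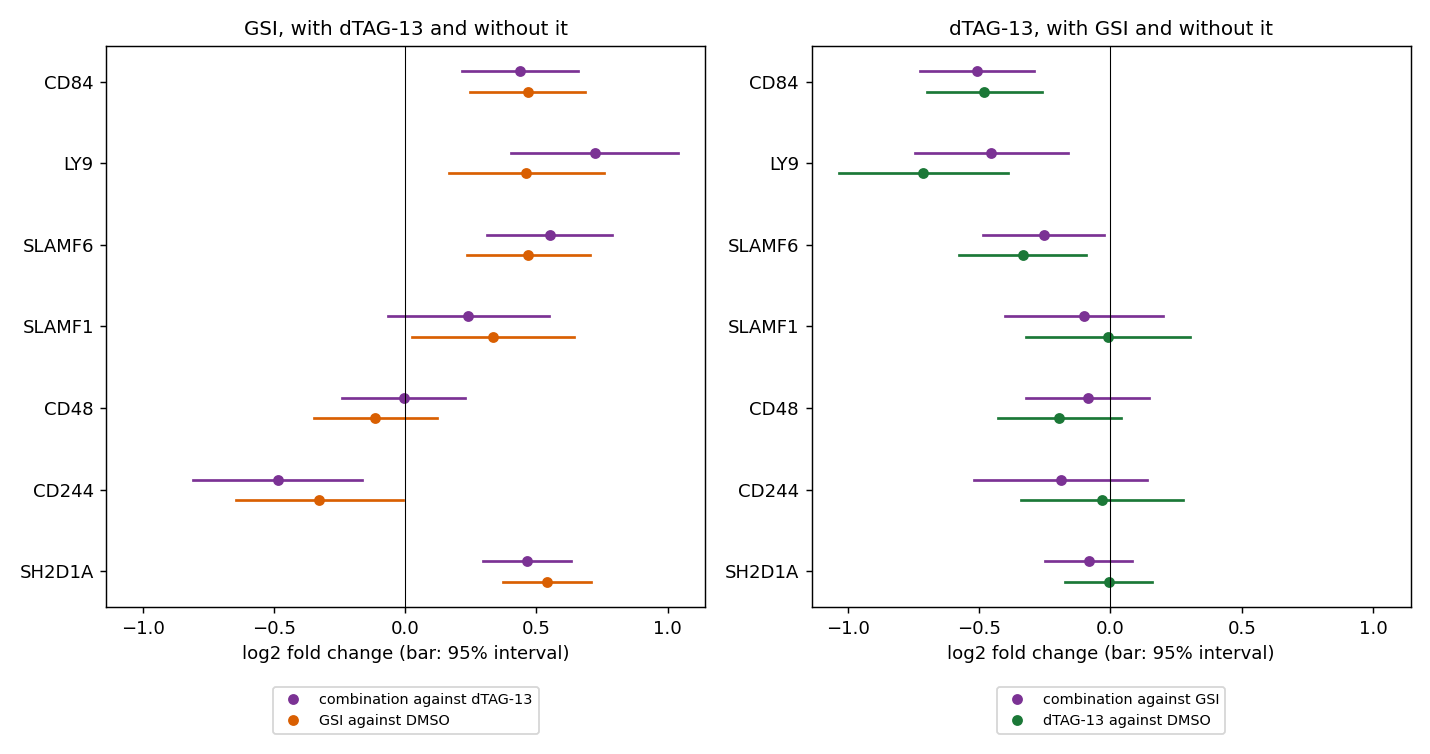
Log2 fold change with 95% interval for GSI (left, with dTAG-13 above and without it below) and for dTAG-13 (right, with GSI above and without it below), for the 7 genes other than SLAMF7. In each gene the interval of one background overlaps that of the other.

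Markers of other blood cells that also carry SLAM receptors moved with GSI in part. The 8 B cell markers, 3 of them above 1 CPM and none at 0 in all libraries, summed to 103 to 108 CPM with the combination and 97.9 to 120 CPM with GSI, against 78.4 to 81.2 CPM with dTAG-13 and 73.0 to 84.8 CPM with DMSO, most of it from CD79A. The 8 natural killer cell markers, with NCR1 and FCGR3A at 0 in all libraries and 2 above 1 CPM, summed to 26.4 to 29.2 CPM with the combination and 27.0 to 29.9 CPM with GSI, against 21.4 to 25.4 CPM with dTAG-13 and 23.7 to 25.8 CPM with DMSO, most of it from NKG7. The part of these markers in the results was not tested. Myeloid and dendritic markers summed to at most 0.924 CPM in any library. In bulk RNA, fewer cells with a transcript and less of it per cell cannot be told apart.

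A list of 27 genes around the receptors held further ligands, kinases, adaptors and signalling proteins. Of these, 25 were tested, and SLAMF9 and SH2D1B had 0 counts. Averaged over both backgrounds, 5 rose and 1 fell with GSI (6 of 25, beside 6.94% of all genes), with a median log2 difference of 0.08 against 0.01 over all genes. By edgeR no gene of the list passed for dTAG-13 averaged over both backgrounds, beside 0.499% of all genes, where the median was -0.06 against 0.003 over all genes and 8 of 25 had an unadjusted p under 0.05, beside 6.08% of all genes. Among the lowest of these were the exchange factor ARHGEF6 (-0.21, edgeR adjusted p = 0.28) and the adaptor DOK2 (-0.25, edgeR adjusted p = 0.404).

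CD2, an adhesion receptor that binds CD58 and, weakly, CD48, averaged 90.3 CPM with the combination, 94.4 CPM with GSI, 68.6 CPM with dTAG-13 and 67.0 CPM with DMSO. It rose with GSI over both backgrounds (0.45, SE 0.069, edgeR adjusted p = 0.00221) and against DMSO (0.50, SE 0.097, edgeR adjusted p = 0.023). The second call was lost without DMSO replicate 1 (adjusted p = 0.155), DMSO replicate 2 (0.366) or GSI replicate 2 (0.0901). Others that rose over both backgrounds included PRKCQ, the protein kinase C of T cells that acts below SAP and FYN (0.33, edgeR adjusted p = 0.00742), DOK2 (0.41, edgeR adjusted p = 0.00678) and ARHGEF6 (0.25, edgeR adjusted p = 0.0271). ARHGEF6 was lost without DMSO replicate 1 (0.144), DMSO replicate 2 (0.11), dTAG-13 replicate 1 (0.0643), dTAG-13 replicate 2 (0.165), GSI replicate 1 (0.0769) or combination replicate 1 (0.0501). PRKCQ was lost without DMSO replicate 2 (0.0722) or dTAG-13 replicate 2 (0.0585), and DOK2 without DMSO replicate 2 (0.0653).

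INPP5D, whose product SHIP1 is a lipid phosphatase that SLAM receptors can recruit when SAP is missing, averaged 26.6 CPM with the combination, 33.4 CPM with GSI, 38.5 CPM with dTAG-13 and 38.8 CPM with DMSO. It fell with the combination against DMSO (-0.55, SE 0.11, edgeR adjusted p = 0.0276) and against dTAG-13 (-0.54, SE 0.11, edgeR adjusted p = 0.0322), and with GSI averaged over both backgrounds (-0.38, SE 0.075, edgeR adjusted p = 0.0105). Each of the first 2 calls was lost whichever 1 of its 4 libraries was left out, with adjusted p from 0.0564 to 0.426, the second also in its 4 libraries alone (0.0732), and the averaged call without DMSO replicate 2 (0.0892) or dTAG-13 replicate 1 (0.054). FYN itself averaged 153 CPM with the combination, 164 CPM with GSI, 165 CPM with dTAG-13 and 165 CPM with DMSO, a GSI difference of -0.06 over both backgrounds (95% interval -0.18 to 0.06, edgeR adjusted p = 0.584).

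The genes beside the cluster on chromosome 1 were set next to its members, since members share this neighbourhood. Of 13 neighbours in RefSeq order, 10 were tested, and ITLN1 and ITLN2 had at most 1 count in any library. With GSI averaged over both backgrounds 2 of 10 rose, beside 6.94% of all genes called in either direction: VANGL2, a planar polarity gene next to SLAMF6 (0.51, SE 0.12, edgeR adjusted p = 0.026), and TSTD1 (0.28, SE 0.072, edgeR adjusted p = 0.0392). VANGL2 was lost without DMSO replicate 1 (0.115), dTAG-13 replicate 1 (0.0691), dTAG-13 replicate 2 (0.109), GSI replicate 1 (0.0793) or combination replicate 1 (0.0849). TSTD1 was lost whichever 1 of the 8 libraries was left out, and by DESeq2 (0.0713). NCSTN, which encodes the nicastrin subunit of gamma-secretase, gave 0.17 (SE 0.056, edgeR adjusted p = 0.087). Both averaged over the backgrounds, the neighbours' median was 0.09 for GSI, against 0.007 over all genes, and -0.04 for dTAG-13, against 0.003 over all genes. By edgeR no neighbour passed for dTAG-13, beside 0.499% of all genes. An unadjusted p under 0.05 was reached by 1 of 10, beside 6.08% of all genes.

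**Figure D5:**
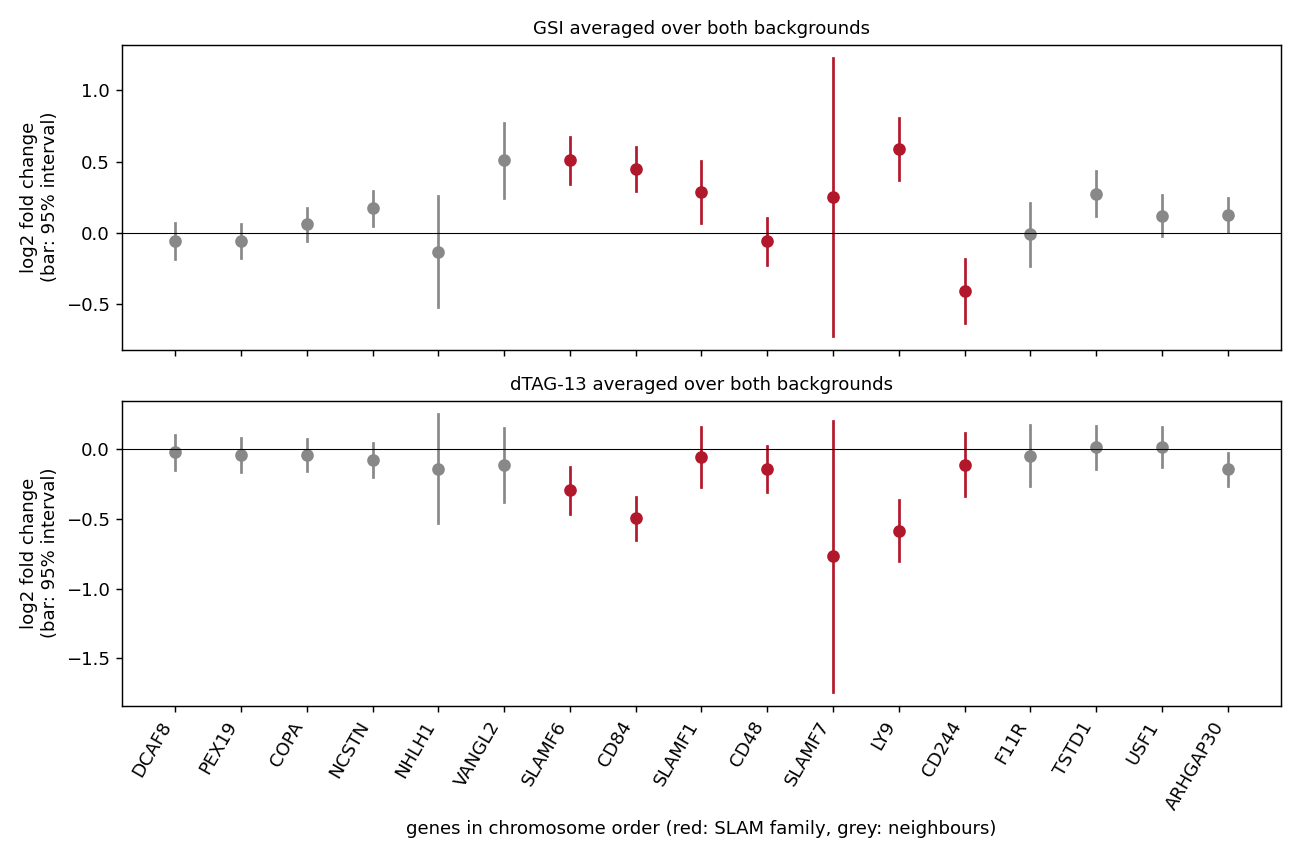
Log2 fold change with 95% interval for GSI (top) and dTAG-13 (bottom), each averaged over both backgrounds, with genes in chromosome order (red SLAM family, grey neighbours). Along the cluster the GSI values run from 0.59 for LY9 to -0.41 for its neighbour CD244. CD84, LY9 and SLAMF7 have the lowest dTAG-13 values, that of SLAMF7 with an interval that includes 0. CD84 and LY9 were picked for rising with GSI and falling with dTAG-13, and SLAMF7 passed the filter only through its GSI libraries. The places of these genes are therefore a description only.

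Across the 8 libraries, log2 CPM of CD84 and LY9 had a Pearson correlation of 0.942, and those of SLAMF6 with CD84 and LY9 were 0.931 and 0.955. CD244 and SH2D1A ran against each other at -0.887. These are descriptions over 8 libraries that share 4 treatments. The pick of CD84 and LY9 shapes every correlation that includes either gene. Correlations of this size were not particular to the family. They were sought among 10230 genes averaging 5 CPM or more, leaving out genes named after a sequenced clone. Of these, 30 had a correlation over 0.95 with CD84, with no family member among them. With LY9 it was 25, SLAMF6 included. Among these 10230 genes, those most like CD84 were DIAPH1 (0.99), ITGA4 (0.988), FLT1 (0.984), STT3B (0.978) and SEPTIN6 (0.977). SEPTIN6 is listed in the table under a symbol turned into a date and is named here by its gene ID. DIAPH1, for example, averaged 584 CPM with the combination, 708 CPM with GSI, 515 CPM with dTAG-13 and 613 CPM with DMSO. Those most like LY9 were RAB37 (0.986), FGFR1 (0.98), MICAL1 (0.979), CHST11 (0.974) and LEPROT (0.97). MICAL1 averaged 82.0 CPM with the combination, 104 CPM with GSI, 60.1 CPM with dTAG-13 and 81.9 CPM with DMSO.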

How the data were processed

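The submitters' processing notes name STAR 2.5.2a, featureCounts, DESeq2 1.12.4 and the genome build hg19. They deposited integer counts per gene and library, and 3 tables of a treatment against DMSO, each with a signal (mean normalised count), a log2 fold change, a score (fold change over its error) and a p-value, all made by the authors. The gene annotation and the strand setting behind the counts are not stated in the sources used here.

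The counts were filtered with filterByExpr, scaled by TMM and fitted with edgeR 4.0.16 (R 4.3.3) in 1 model over 8 libraries and 4 groups (quasi-likelihood, 4 residual degrees of freedom). The 2-sided tests were adjusted by Benjamini-Hochberg over 15646 genes, with a threshold of 0.05. SE and 95% intervals are Wald values from the fit, and the tests were checked on simulated data. A drug averaged over both backgrounds is the mean of its effects with and without the other drug. No test is quoted for CD84, LY9 or SLAMF7. DESeq2 1.42.0 served as an alternative. Lengths are exon or coding bases of GENCODE 29, found by gene ID for 82.5% of the listed genes. Where a symbol had several gene IDs, the one with the most counts was taken. The 8 members and all lists were chosen with earlier results of these data known. Named genes are the members, list genes that passed (1 of them is not reported here), SH2D1B, FYN and NCSTN for their roles, and the 5 genes most correlated with CD84 and with LY9. FYN and NCSTN were named after their values were seen.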

Additional observations from a re-analysis of the deposited data

How the results depend on the processing

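Values of the members for each comparison were computed again without the filter on low counts, with the size factors or the Wald test of DESeq2, a replicate block, the 4 compared libraries alone, and without each library in turn; the block with DMSO numbers crossed was added after seeing the data. Of 712 such values, 649 kept their direction and their side of the threshold (or, for CD84 and LY9 outside the combination against DMSO, moved by less than the replicate SD), 18 lost a call, 8 gained one, 12 values of CD84 and LY9 moved further, and 25 turned round. In all 29 values changed sign, each without 1 library and none of a call. Of 64 CPM values each, 14 moved by more than the replicate SD on raw library sizes and 2 on DESeq2's size factors. GSI against DMSO called 2 members, SLAMF6 joining SH2D1A, with no filter, with DESeq2 and with the replicate block. Over all genes these fits also called more, 660 of 30406, 336 of 15646 and 559 of 15646, against 272 in the main fit. The combination against dTAG-13 called 1 in the 4 libraries alone. Same-numbered libraries deviated together at correlations of -0.108 to 0.214, and with 2 replicates that no label ties together the numbers do not pair the samples. The DMSO numbers were crossed because of these correlations, which in itself favours more calls, so the crossed counts are no separate support. With them, GSI against DMSO and the combination against DMSO each called 2 members. GSI averaged over both backgrounds called 4 and dTAG-13 averaged over both backgrounds 1. Over all genes these comparisons called 1581, 1191, 3221 and 283. The crossed block also called 94 genes for dTAG-13 against DMSO, 1434 for the combination against dTAG-13 and 103 for the combination against GSI. Without 1 library, the members called ran from 0 to 2 for GSI against DMSO, 0 to 1 for the combination against DMSO and 0 to 2 for the combination against dTAG-13.

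Ranges that cross 0 without 1 library, on the log2 scale, were as follows. For dTAG-13 against DMSO they were -0.16 to 0.15 (SLAMF1), -0.72 to 0.16 (SLAMF7), -0.094 to 0.042 (CD244) and -0.035 to 0.021 (SH2D1A). For GSI they were -0.28 to 0.071 (CD48, against DMSO), -0.14 to 0.033 (CD48, averaged) and -0.02 to 0.48 (SLAMF7, averaged). For the combination against DMSO they were -0.11 to 0.022 (CD84) and -0.13 to 0.15 (LY9), against dTAG-13 -0.80 to 0.20 (SLAMF7) and -0.046 to 0.04 (CD48), and against GSI -0.26 to 0.049 (SLAMF1). For dTAG-13 averaged over both backgrounds SLAMF1 ran from -0.13 to 0.023, and for the combination minus the summed single effects CD84 ran from -0.16 to 0.12, SLAMF1 from -0.25 to 0.062, SLAMF6 from -0.006 to 0.17 and CD48 from -0.076 to 0.28.

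Over all genes edgeR's calls moved by more than 1.5 times with no filter, where 30406 genes were tested, and with the replicate block. They came to 51 with no filter and 23 with the block, against 3, for dTAG-13 against DMSO, 660 and 559 against 272 for GSI against DMSO, and 532 and 413 against 205 for the combination against DMSO. The combination against dTAG-13 had 563 and 476 against 189, and the combination against GSI 59 and 34 against 9. For the averages over both backgrounds they were 1815 and 1822 against 1086 (GSI) and 165 and 135 against 78 (dTAG-13). DESeq2 called 23 for dTAG-13 against DMSO and 23 for the combination against GSI. Depth limits SLAMF7 most, and 2 libraries a group limit every single comparison. The cause of these changes was not tested.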
